A study of Mus musculus with 6 samples.

Results

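The choroid plexus epithelium genes Ttr, Otx2, Folr1, Kcnj13, Clic6, Aqp1, Kl, Enpp2, Prlr and Cldn2 were followed through 6 arrays of endothelial cells from the mouse cerebellum. Their probe sets were those that the platform annotation assigns to one of these symbols alone. This gave 14 of the 45037 probe sets tested and 8 of the 10 genes, of 18193 genes on the array. Enpp2 and Prlr had no probe set under that name in the annotation used here and were not analysed here.

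The study asked what a lasting loss of Frizzled4 (gene Fzd4), the endothelial receptor for Norrin, does to the transcriptome of cerebellar vessels. The 3 Fz4-null preparations came from Fz4-/- mice and the 3 wild-type preparations from wild-type mice. All 6 were made at postnatal day 16, from animals of mixed gender on a C57Bl6/129 mixed background, with magnetic beads carrying an antibody to PECAM, an endothelial surface protein. The labels do not say whether a preparation was 1 animal or a pool, so the tests measure only the spread between these samples. The labels name the Fz4-/- genotype and no Cre driver, so nothing in them limits the loss to endothelial cells.

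The choroid plexus is a tuft of capillaries and stroma in each brain ventricle, covered by a cuboidal epithelium that secretes the cerebrospinal fluid. One of these tufts hangs in the fourth ventricle, directly under the cerebellum. Its epithelium makes transthyretin in very large amounts, moves ions and water into the fluid through apical channels and transporters, and is joined by leaky tight junctions. Its capillaries, unlike those of the cerebellum itself, are fenestrated. None of the 10 genes is a standard marker of the barrier-forming endothelium for which the preparations were made, although Aqp1 is also made by red cells and by endothelium outside the brain.

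All values are log2 RMA expression, so a step of 1 is a doubling, and all differences are Fz4-null minus wild type. Array medians lay between 5.52 and 5.58, lower quartiles between 3.46 and 3.64, and the brightest probe set of each array between 13.72 and 13.85. A level near the lower quartile is not shown to lie above background, because the table has no detection call. Fzd4 read 3.04 to 4.03 in the 3 Fz4-null arrays, against 10.20 to 10.88 in the 3 wild-type arrays, and passed the test (limma adjusted p = 0.00965). The mean of 19 pan-endothelial genes was 11.57 to 11.72 in the Fz4-null arrays and 11.35 to 11.54 in the wild-type arrays.

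All 8 measured genes had a lower mean in the Fz4-null arrays, as 48.7% of all genes did, and none passed the test over all probe sets. The median difference was -1.54 on the log2 scale, where the median over all probe sets was -0.0079. In limma, 0 of the 8 had an adjusted p under 0.05, where 0.022% of all genes did (4 of 18193, or 5 of 45037 probe sets, which is 0.0111%, and 0 probe sets with the replicate number as a block). At an unadjusted p under 0.05 the count was 3 of 8 (Ttr, Otx2 and Folr1), where 4.6% of all genes were. In 4 of the 8, all Fz4-null arrays lay below all wild-type arrays, as they did in 4.95% of all genes.

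Wild-type replicate 3 was the highest of the 6 arrays for 8 of the 8 genes, as it was for 22% of all genes. It exceeded the mean of wild-type replicates 1 and 2 by at least 1 on the log2 scale for all 8, as for 9.22% of all genes, with a median excess of 2.68. Without that array the median difference of the 8 genes was -0.73, and 6 of 8 means were lower in the Fz4-null arrays, as were 48.7% over all genes. Set against wild-type replicates 1 and 2 alone, all Fz4-null arrays lay below both in 4 of the 8 genes, as in 12.7% of all genes. The averages over the 8 genes were 4.79, 5.37 and 5.25 in Fz4-null replicates 1 to 3, against 5.90, 5.83 and 8.27 in wild-type replicates 1 to 3. The groups did not overlap in that average, and the wild-type group itself spanned more than the distance between the genotypes. These are bulk preparations, in which fewer epithelial cells and less RNA per epithelial cell cannot be told apart.

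**Figure D1:**
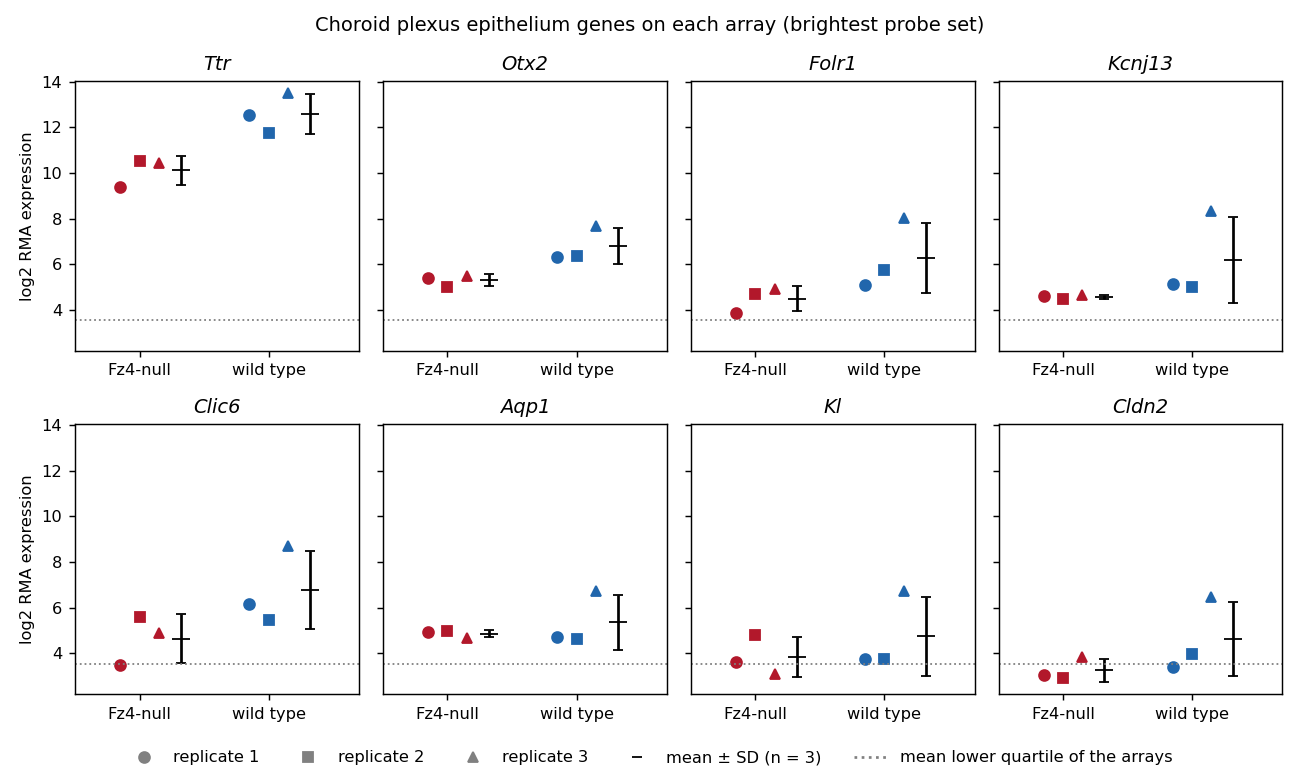
Log2 RMA expression of the 8 measured genes (vertical axis, 1 panel a gene, brightest probe set) on the 3 Fz4-null arrays (red, left) and the 3 wild-type arrays (blue, right), with the replicate number as the symbol, the mean ± SD (n = 3) in black and the mean lower quartile of the arrays dotted. Wild-type replicate 3 is the highest point in every panel, and the groups are separate for Ttr, Otx2, Folr1 and Kcnj13.

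Ttr encodes transthyretin, the thyroid hormone and retinol carrier that is the main secreted protein of this epithelium. Its brightest probe set read 9.40, 10.52 and 10.45 in Fz4-null replicates 1 to 3, against 12.54, 11.76 and 13.50 in wild-type replicates 1 to 3. All 3 Fz4-null values lay below all 3 wild-type values. The means were 10.12 ± 0.63 in Fz4-null arrays and 12.60 ± 0.87 in wild-type arrays (SD, n = 3 each). The log2 difference of -2.48 (SE 0.50, 95% interval -3.66 to -1.29), or 5.57-fold higher in wild type, did not pass in limma (unadjusted p = 0.00177, adjusted p = 0.580). Ttr ranked 137th of the 45037 probe sets by p. Without wild-type replicate 3 the difference was -2.03 (limma adjusted p = 0.549). Wild-type replicate 3 read within 0.3 of the brightest probe set on its array.

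The other Ttr probe sets gave the same order of groups. Their differences were -2.52, -3.10 and -3.34, each with all Fz4-null arrays below all wild-type arrays. All 4 carry a suffix that marks probes able to read more than 1 transcript. At the one with the largest difference the values were 7.15, 9.66 and 9.51 in the Fz4-null arrays, against 11.80, 10.95 and 13.56 in the wild-type arrays. Fz4-null replicate 1 was the lowest array at all 4, with values of -2.45 to -0.84 relative to the mean of Fz4-null replicates 2 and 3. By replicate number, the brightest probe set differed by -3.14, -1.24 and -3.05.

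Otx2, a homeodomain transcription factor needed to form and maintain the choroid plexus, had the least spread among the Fz4-null arrays after Kcnj13 and Aqp1. It read 5.39, 5.01 and 5.50 in the Fz4-null arrays, against 6.33, 6.36 and 7.70 in the wild-type arrays. The groups were separate by 0.83 at their nearest arrays, and wild-type replicate 3 again stood highest. The difference was -1.50 (SE 0.40, 95% interval -2.44 to -0.56), 2.82-fold higher in wild type, with unadjusted p = 0.00726 and adjusted p = 0.885 in limma. Without wild-type replicate 3 it was -1.05, with unadjusted p = 0.00348 and adjusted p = 0.549. Otx2 is also made by granule neuron precursors of the posterior cerebellum. The list of 11 granule neuron and precursor genes averaged 4.81, 5.78 and 6.22 in the Fz4-null arrays, against 5.35, 5.60 and 6.43 in the wild-type arrays, with overlap, and its part in the Otx2 values was not tested.

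Folr1, the folate receptor that carries folate across this epithelium, read 3.87, 4.69 and 4.91 in the Fz4-null arrays, against 5.11, 5.76 and 8.03 in the wild-type arrays. The groups were separate by only 0.21 between Fz4-null replicate 3 and wild-type replicate 1, while wild-type replicate 3 lay 2.60 above the mean of the other wild-type arrays. The difference was -1.81 (SE 0.74, unadjusted p = 0.0444 and adjusted p = 1.00 in limma), and -0.95 without wild-type replicate 3.

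Kl encodes Klotho, a membrane protein that pairs with FGF receptors to bind FGF23 and is shed into the cerebrospinal fluid. At the brighter of its probe sets it read 3.61, 4.81 and 3.10 in the Fz4-null arrays, against 3.75, 3.74 and 6.74 in the wild-type arrays. All but Fz4-null replicate 2 and wild-type replicate 3 lay within 0.5 of the lower quartile. The difference of -0.90 (SE 0.87, 95% interval -2.98 to 1.17) became 0.095 without wild-type replicate 3. The other Kl probe set spanned 3.87 to 4.33 in the Fz4-null arrays and 4.25 to 4.42 in the wild-type arrays and did not single out wild-type replicate 3, which lay 0.023 above the mean of wild-type replicates 1 and 2 and below replicate 2.

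Kcnj13 encodes Kir7.1, an inward rectifier potassium channel of the apical membrane. It read 4.61, 4.49 and 4.65 in the Fz4-null arrays, against 5.15, 5.03 and 8.35 in the wild-type arrays. The Fz4-null arrays agreed within 0.16 of one another, and wild-type replicates 1 and 2 lay just above them. Wild-type replicate 3 lay 3.26 above the mean of wild-type replicates 1 and 2, the largest excess among the 8 genes. The difference was -1.59 (SE 0.85, unadjusted p = 0.104 and adjusted p = 1.00 in limma), and -0.51 without wild-type replicate 3.

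Clic6, of the chloride intracellular channel family, read 3.48, 5.57 and 4.88 in the Fz4-null arrays, against 6.17, 5.46 and 8.69 in the wild-type arrays. The groups overlapped, since Fz4-null replicate 2 exceeded wild-type replicate 2. The difference was -2.13 (SE 0.90, 95% interval -4.27 to 0.0069) with all arrays and -1.17 without wild-type replicate 3. Its dimmer probe set differed by -1.33 with all arrays and by -0.40 without wild-type replicate 3, with the same arrays highest and lowest as at the brighter one.

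Aqp1, the water channel of the apical membrane, had the smallest difference. It read 4.93, 4.99 and 4.67 in the Fz4-null arrays, against 4.73, 4.61 and 6.73 in the wild-type arrays. Apart from wild-type replicate 3, the arrays of both groups lay between 4.61 and 4.99. The difference of -0.50 (SE 0.56, 95% interval -1.82 to 0.83) became 0.19 without wild-type replicate 3. Beside it, 10 genes of fenestrated endothelium averaged 8.97 to 9.59 in the Fz4-null arrays and 7.41 to 7.50 in the wild-type arrays. The 5 measured red cell genes averaged 4.64, 4.15 and 4.61 in the Fz4-null arrays, against 4.74, 4.48 and 5.03 in the wild-type arrays. Of these 5 genes, 3 were highest in wild-type replicate 3, as were 22% of all genes. The part of either list in the Aqp1 values was not tested.

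Cldn2, a claudin that forms cation and water pores in leaky tight junctions, read 3.04, 2.90 and 3.83 at the brighter of its probe sets in the Fz4-null arrays, against 3.41, 3.96 and 6.45 in the wild-type arrays. The groups overlapped, and every array but wild-type replicate 3 read below 4. The difference was -1.35 (SE 0.77, 95% interval -3.17 to 0.47), and -0.43 without wild-type replicate 3. The other Cldn2 probe set differed by 0.22 in the opposite direction, between 3.45 and 4.01 in the Fz4-null arrays and between 3.27 and 3.71 in the wild-type arrays, and was lowest in wild-type replicate 3.

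**Figure D2:**
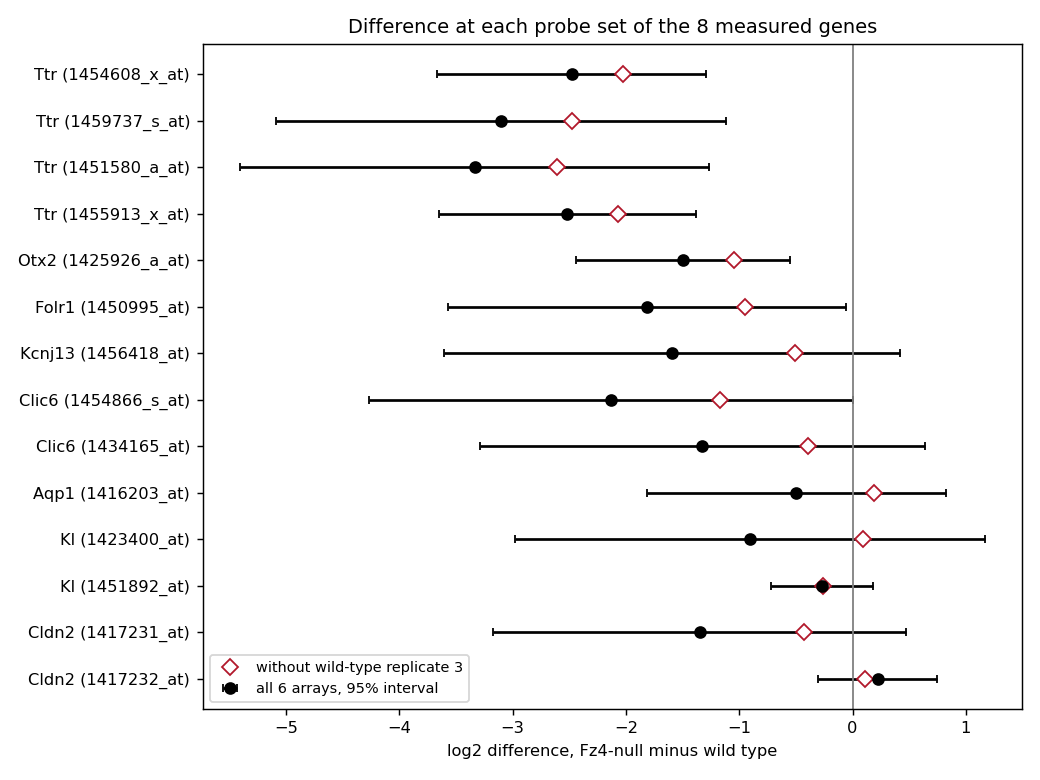
Log2 difference, Fz4-null minus wild type (horizontal axis), at each of the 14 probe sets, with the 95% interval of limma from all 6 arrays (black) and the difference without wild-type replicate 3 (open diamonds). The differences of the 4 Ttr probe sets, Otx2 and the brighter Clic6 probe set lie more than 1 below 0 with and without that array. The Otx2 interval reaches -0.56 and that of the brighter Clic6 probe set reaches 0.0069. Aqp1 and the brighter Kl probe set cross 0 without that array.

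The bases before the transcription start are shown for 3 members whose values are described above, Otx2 because it is the transcription factor of the set, and Kcnj13 and Cldn2 because they are the other measured genes whose window held one of the motifs searched. Of the 4 Otx2 windows, only the one that held the Otx motif is shown. The windows of Kl and Aqp1 held neither motif and are not shown. All windows are the 250 bases upstream in RefSeq annotation of GRCm38.p6, read 5′ to 3′ on the gene's strand. Capitals mark TAATCC, the core of the sites that Otx homeodomains bind (searched on both strands, so that its reverse complement GGATTA counts), and TATAA, the TATA box core (searched on the gene's strand).
Otx2 (chr14:48665110-48665359, minus strand): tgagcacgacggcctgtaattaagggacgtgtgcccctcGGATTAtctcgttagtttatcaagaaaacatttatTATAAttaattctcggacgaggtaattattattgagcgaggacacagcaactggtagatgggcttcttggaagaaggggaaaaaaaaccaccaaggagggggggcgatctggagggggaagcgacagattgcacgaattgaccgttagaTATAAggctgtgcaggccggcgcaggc
Kcnj13 (chr1:87394730-87394979, minus strand): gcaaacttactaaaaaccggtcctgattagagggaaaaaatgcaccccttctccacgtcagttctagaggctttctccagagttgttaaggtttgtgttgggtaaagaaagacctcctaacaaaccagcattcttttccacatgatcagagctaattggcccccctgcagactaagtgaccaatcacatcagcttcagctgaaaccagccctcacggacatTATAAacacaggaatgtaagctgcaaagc
Cldn2 (chrX:139800558-139800807, plus strand): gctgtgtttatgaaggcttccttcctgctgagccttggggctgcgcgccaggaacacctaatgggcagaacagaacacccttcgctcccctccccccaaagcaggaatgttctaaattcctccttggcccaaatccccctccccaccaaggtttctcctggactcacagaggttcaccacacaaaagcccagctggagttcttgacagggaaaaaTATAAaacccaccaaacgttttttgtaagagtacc
The Otx core stood in 1 of 8 such windows of 5 measured genes, this Otx2 start, where it begins 211 bases upstream, and in 6.25% of the 32851 windows of all genes. TATAA stood in 4 of the 8, beginning 29 bases upstream of the start in Kcnj13 and 35 bases upstream in Cldn2, and in 16% of all windows. The 8 windows include 4 of Otx2, a pair of which overlap. A match is a run of letters and not a shown binding site.

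The 8 genes moved together across the arrays mainly through wild-type replicate 3. Pearson correlations between pairs of them over the 6 arrays (28 pairs) ranged from 0.60 to 0.96, with a median of 0.87. Over the 5 arrays without wild-type replicate 3 they ranged from -0.98 to 0.98, with a median of 0.45. The pairs share arrays and their normalization, so these values are a description.

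A wider list of 32 other genes of the choroid plexus epithelium, of which 31 were measured, showed the same arrangement of arrays. Of the 31, 27 had a lower and 4 a higher mean in the Fz4-null arrays, where 48.7% of all genes had a lower mean. The median difference was -0.71, or -0.34 without wild-type replicate 3. None had a limma adjusted p under 0.05, where 0.022% of all genes did. An unadjusted p under 0.05 in limma was reached by 7 of the 31 and by 4.6% of all genes. In 11 of the 31, all Fz4-null arrays lay below all wild-type arrays, where 4.95% of all genes did. Wild-type replicate 3 was the highest array for 24 of the 31, as for 22% of all genes. It exceeded the mean of the other wild-type arrays by at least 1 for 16, as for 9.22% of all genes. Some of these genes, such as Msx1, Ezr and Sulf1, are made by many other cells.

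Several ion transport genes of the wider list read below the lower quartile in all Fz4-null arrays, where a level is not shown to lie above background, so the size of their differences is uncertain. Slc4a10, a sodium bicarbonate transporter that neurons also make, read 3.13, 3.29 and 2.81 in the Fz4-null arrays, against 5.04, 4.58 and 7.17 in the wild-type arrays. Its groups were separate, and the difference of -2.52 (SE 0.64, unadjusted p = 0.00588 and adjusted p = 0.850 in limma) was -1.73 without wild-type replicate 3. Kcne2, a potassium channel subunit, differed by -2.24 (SE 0.87) and Slc4a5, another sodium bicarbonate transporter, by -1.70 (SE 0.67), both with the Fz4-null arrays at that low level as well. Without wild-type replicate 3 these were -1.14 for Kcne2 and -0.92 for Slc4a5. In wild-type replicates 1 and 2, Kcne2 read 3.22 and 3.68 and Slc4a5 read 3.44 and 2.43, near or below the lower quartile. The differences without wild-type replicate 3 therefore compare low levels in both genotypes.

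Ecrg4, a secreted peptide precursor, read 5.76, 6.34 and 7.79 in the Fz4-null arrays, against 7.40, 8.22 and 10.26 in the wild-type arrays, with overlap between Fz4-null replicate 3 and wild-type replicate 1. F5, coagulation factor V, was the exception among the low p values, since wild-type replicate 3 was not its highest array. It read 9.17, 8.65 and 8.56 in the Fz4-null arrays, against 9.50, 9.60 and 9.40 in the wild-type arrays, a difference of -0.71 (SE 0.22, unadjusted p = 0.0140 and adjusted p = 0.988). The glucose transporter Slc2a12 (-1.11), the epithelial keratin Krt8 (-1.06) and the membrane protein Tmem72 (-0.85) completed the 8 genes of lowest p. All 8 were lower in the Fz4-null arrays. The 4 genes with a higher Fz4-null mean were Trpv4 (0.44), Slc13a4 (0.16), Trpm3 (0.16) and Lmx1a (0.12), each with overlapping groups. Wild-type replicate 3 stood at -0.11 for Trpv4 relative to the mean of the other wild-type arrays. Htr2c, the serotonin receptor of this epithelium, was picked out after its values were seen. It read 1.52, 1.60 and 1.73 in the Fz4-null arrays, against 2.09, 1.81 and 6.32 in the wild-type arrays, so that wild-type replicate 3 alone stood above the lower quartile.

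**Figure D3:**
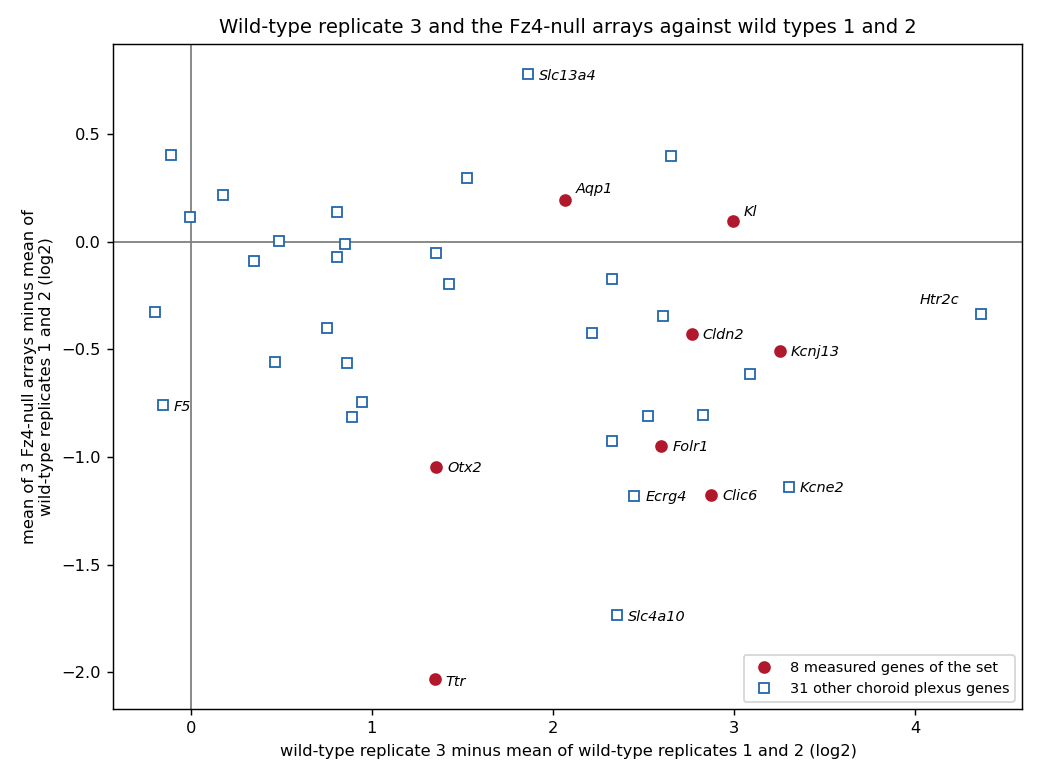
For each of the 8 measured genes of the set (red circles) and 31 other choroid plexus genes (open squares), the log2 excess of wild-type replicate 3 over the mean of wild-type replicates 1 and 2 (horizontal axis) against the mean of the 3 Fz4-null arrays minus the same mean (vertical axis). Most points lie to the right of 0. Below 0 lie 6 of the 8 red circles and 23 of the 31 squares, with Ttr and Slc4a10 lowest. Of all genes, 48.7% had a value below 0 on the vertical axis.

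Averaged over their lists, other cell types near the choroid plexus did not share the excess in wild-type replicate 3 to the same size. No test of that difference was made. Against the mean of wild-type replicates 1 and 2, that array lay 2.41 higher for the mean of the 8 genes and 1.49 higher for the wider list. The corresponding excess was 0.15 for 12 ependymal and motile cilia genes and 0.31 for 14 genes of choroid and meningeal stroma. It was 0.18 for pan-endothelial genes and 0.056 for 10 genes of fenestrated endothelium. That last mean joins opposite signs. Of the 10 genes, 2 had an excess of at least 1, Plvap (2.11) and Cd300lg (1.42), where 9.22% of all genes did. Cd36 had -1.57, and wild-type replicate 3 was the lowest array for 5 of the 10. Granule neuron and precursor genes had 0.95, astrocyte genes 0.56 and pericyte and smooth muscle genes 0.40. Of the 11 granule neuron and precursor genes, 5 had an excess of at least 1, such as Neurod1 (2.28) and Gabra6 (2.14). Zic2 of the same list had -0.39. Microglia and macrophage genes had -0.25.

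Lists of several other cell types also had a lower mean in the Fz4-null arrays. The mean difference was -1.01 for microglia and macrophage genes, -0.91 for stroma and -0.64 for ependymal genes. Astrocyte genes had -0.50 and pericyte and smooth muscle genes -0.37, against -1.53 for the 8 genes and -0.84 for the wider list. Without wild-type replicate 3, the median difference was -1.06 for microglia and macrophage genes, -0.89 for stroma and -0.56 for ependymal genes. Astrocyte genes then had -0.48 and pericyte and smooth muscle genes -0.24, against -0.73 for the 8 genes and -0.34 for the wider list. By that median the 8 genes were not the lowest of these lists. Microglia and macrophage genes averaged 5.16, 7.89 and 7.42 in Fz4-null replicates 1 to 3, against 7.92, 7.93 and 7.67 in wild-type replicates 1 to 3. Stroma genes averaged 6.96, 9.90 and 8.85 in Fz4-null replicates 1 to 3, against 9.38, 9.37 and 9.69 in wild-type replicates 1 to 3. Fz4-null replicate 1 stood at -2.52 relative to the wild-type mean and Fz4-null replicate 2 at 0.42, and 13 of the 14 genes were lowest in Fz4-null replicate 1. That array was also the lowest for Ttr, Folr1 and Clic6, and without it the differences were -2.12 for Ttr, -1.50 for Folr1 and -1.52 at the median of the 8 genes. Ependymal genes averaged 6.20, 6.35 and 6.78 in the Fz4-null arrays, against 6.62, 7.46 and 7.18 in the wild-type arrays, with overlap. Of the 12 ependymal genes 11 had a lower mean in the Fz4-null arrays, as did 48.7% of all genes. None passed (lowest limma adjusted p = 0.571), where 0.022% of all genes did. An unadjusted p under 0.05 in limma was reached by 2 of the 12 and by 4.6% of all genes. Whether other cells carried with the tissue had a part in the values of the 8 genes was not tested.

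**Figure D4:**
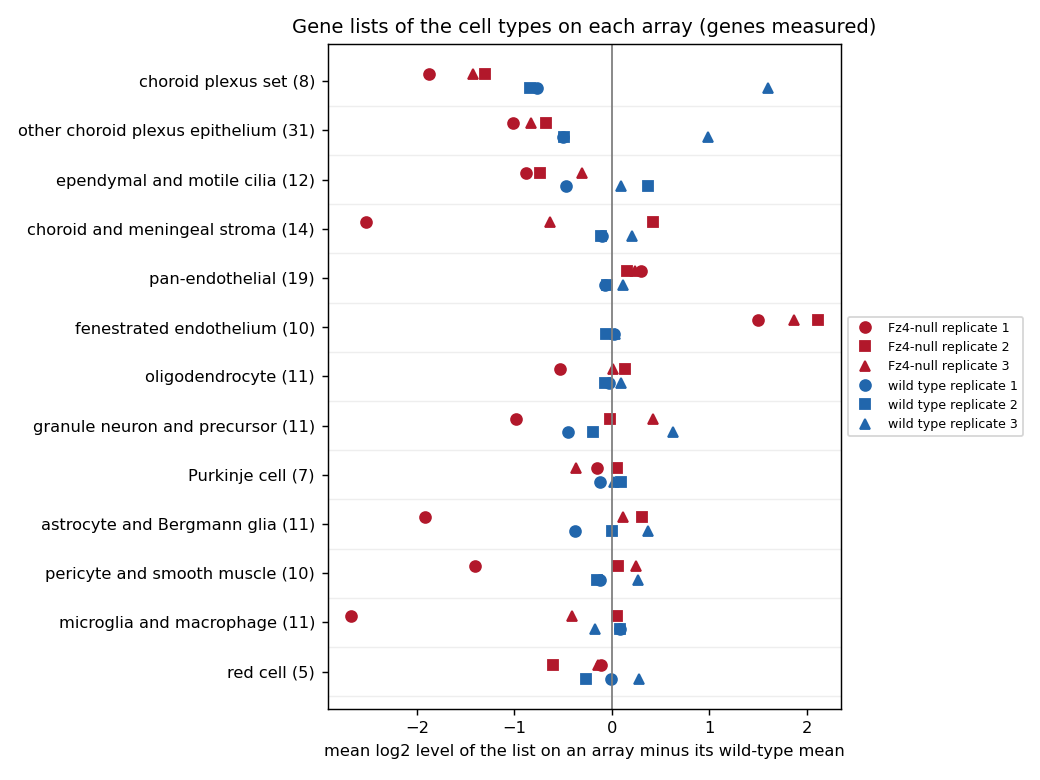
Mean log2 level of each gene list on each array minus its mean over the 3 wild-type arrays (horizontal axis), for Fz4-null arrays (red) and wild-type arrays (blue), with the replicate number as the symbol and the number of genes measured in brackets. The choroid plexus lists have wild-type replicate 3 far to the right and all Fz4-null arrays left of the wild-type arrays, while the stroma, astrocyte, mural and microglia lists have Fz4-null replicate 1 far to the left.

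The genes whose pattern over the 6 arrays was most like the mean of the 8 were Slc7a8, Adh1, Nsg2, Asns, Cfap69, Lama1, Abca4, Fabp3, Arvcf and Pcca. They were the 10 highest by Pearson correlation among 2755 genes that are not members, lie above the median level and vary with an SD of at least 0.5. Their correlations ran from 0.94 to 0.99 over 6 arrays. Wild-type replicate 3 was the highest array for all 10, and the correlation without it (5 arrays) was 0.58 to 0.92. Without Fz4-null replicate 1 as well (4 arrays), it was -0.10 to 0.90, highest for Fabp3, so that for several of them the likeness rested on those arrays.

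Slc7a8, an amino acid transporter, read 6.60, 7.27 and 6.98 in the Fz4-null arrays, against 7.41, 7.22 and 8.87 in the wild-type arrays. Its groups overlapped at wild-type replicate 2. Fabp3, a fatty acid binding protein, read 5.93, 7.13 and 6.83 in the Fz4-null arrays, against 7.30, 7.27 and 8.63 in the wild-type arrays, with separate groups and a difference of -1.11 (SE 0.47, unadjusted p = 0.0512 and adjusted p = 1.00 in limma). Abca4, a retinoid transporter, is itself in the wider choroid plexus list.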

How the data were processed

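The data are the deposited log2 expression values of 6 Affymetrix 3' arrays, 1 per preparation, made with RMA per the submitters' processing notes. This method subtracts background, equalises the distributions of the arrays and gives 1 value a probe set, and it shrinks differences near background. The labels give no version. RNA was extracted with Trizol and RNeasy and labelled with biotin, per the labels' protocols.

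Of 45101 probe sets, 64 controls were left out. Of the rest 34945 carried 1 symbol, 932 several and 9160 none in the platform annotation. A gene was read from its brightest probe set over the 6 arrays among those with 1 symbol. The genotypes were set against each other in R 4.3.3 with limma 3.58.1 (lmFit, then eBayes, two-sided, no covariate), adjusted by Benjamini-Hochberg over 45037 probe sets at 0.05. The number of arrays limits the precision. Exact permutation was not used, as 3 against 3 arrays allow no p under 0.1. Arrays of the same 45037 probe sets were simulated with 200 of them changed. On these limma recovered 4.03% of changes of 1, 78.5% of changes of 2 and 99.2% of changes of 4 on the log2 scale. False calls were 5.69%. The data themselves gave 5 calls, and Plvap, which differed by 5.21, was not among them (limma adjusted p = 0.126). The recovered shares therefore hold for that simulated setting and do not give the power for the 8 genes. No 2 arrays shared over 0.351% of values.

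The labels number replicates 1 to 3 in both genotypes. Deviations from group means correlated at 0.244, 0.303 and 0.574 for the same numbers, above the 0.1 taken to mark pairs. Fz4-null 2 with wild type 1 (0.262) and Fz4-null 1 with wild type 2 (0.124) also lay above it. That mark therefore cannot show that the numbers are pairs. The block was an alternative.

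Members, gene lists and tests were chosen with earlier results of these data known. The text names every member and the 10 genes most correlated with the members. Of the wider list it names the 8 genes of lowest p and the 4 with a higher Fz4-null mean. Some other genes, such as Htr2c, Plvap and Neurod1, were picked out after their values were seen. Alternatives were other normalizations, filters on dim probe sets, a robust variance trend, array weights, the replicate block, each array left out, and other rules for a gene's probe set. Figures were drawn with matplotlib 3.10.9.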

Additional observations from a re-analysis of the deposited data

How the results depend on the processing

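None of the 8 genes passed an adjusted p of 0.05 in limma under any alternative, with lowest adjusted p = 0.334 for Ttr with array weights. Ttr, Otx2, Folr1, Kcnj13, Clic6 and Cldn2 were lower in the Fz4-null arrays under every alternative in which they had a value. Their differences ran from -2.90 to -1.67 for Ttr and from -1.73 to -1.05 for Otx2. The robust variance trend, the replicate block and the filters on dim probe sets cannot change a difference, only its p. The rule that avoids suffixed probe sets kept the same probe set for Ttr and Otx2, which have no other kind. Aqp1 was higher in the Fz4-null arrays with array weights (0.022). With 1 array left out, Aqp1 lay between -0.87 and 0.19 and Kl between -1.40 and 0.095, above 0 only without wild-type replicate 3. Alternatives added after seeing the data gave 0.29 for Aqp1 and 0.46 for Kl without both arrays numbered 3, and 0.16 and 0.21 without Fz4-null replicate 1 and wild-type replicate 3. The median of the 8 genes lay between -2.03 and -0.73 when 1 array was left out, and between -0.93 and -0.34 for the wider list. It was -0.56 for the 8 and -0.29 for the wider list without Fz4-null replicate 1 and wild-type replicate 3, and -1.03 and -0.43 with array weights. Filters on dim probe sets left 3 of the 8 genes above the median level and 1 above log2 of 100, and the wider list then had medians of -0.26 and -0.29.

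Over all probe sets 5 passed at an adjusted p of 0.05, 8 at 0.1, 1 at 0.01 and 21 with array weights, and 0 to 2 when 1 array was left out. With the replicate number as a block 0 passed in limma (3917 at an unadjusted p under 0.05), and the block changed no call of a member (Ttr adjusted p = 0.430). Without both arrays numbered 3, and without Fz4-null replicate 1 and wild-type replicate 3, the count was 0 as well (3580 and 3640 at an unadjusted p under 0.05). The fits without arrays have fewer samples, and other causes were not tested. Most levels of Kl and Cldn2 lie near the lower quartiles, which limits what their differences can show.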
